A study of Saccharomyces cerevisiae with 24 samples.

Results

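Yeast cells lacking RPS0A, one copy of a duplicated gene for a protein of the small ribosomal subunit, were compared with wild-type BY4741, a laboratory strain of Saccharomyces cerevisiae. The comparison used every array titled for these strains, 2 rps0a arrays and 2 wild-type arrays, of 24 arrays in all. Each strain was grown as 2 biological replicates. Per the labels, 50 mL cultures were grown in the rich medium YPD at 30 °C to early log phase, and RNA was extracted with hot phenol. The design text calls the wild type isogenic to the deletions; the labels name BY4741 for the wild-type samples used here and give no separate strain name or marker for rps0a, and they do not say whether the deletion was 1 clone. The other 20 arrays held 10 further single deletions of ribosomal protein genes, 2 arrays each: rps0b, rps18a and rps18b of the small subunit, and for the large subunit both copies of RPL7, RPL12 and RPL22 (rpl7a, rpl7b, rpl12a, rpl12b, rpl22a, rpl22b) and rpl14a. The study asked whether the 2 copies of a duplicated ribosomal protein gene have different effects in the cell.

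Rps0, called uS2 in the nomenclature shared across species, sits on the back of the 40S subunit between head and body, and its human relative is RPSA, also known as the laminin receptor. In yeast it joins the subunit late in assembly and is needed for the last precursor of 18S rRNA to be processed efficiently. Either copy, RPS0A or RPS0B, keeps cells alive, and loss of both is lethal. Ribosome assembly begins in the nucleolus, where RNA polymerase I makes the 35S rRNA precursor and small nucleolar RNAs (snoRNAs) guide its cleavage and modification.

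The Affymetrix YG-S98 array measured 9275 probe sets after 60 control probe sets were set aside. A gene name was attached to 6504 of these as a single name and to 328 as several names, and 2443 had none. Values below are the deposited signals of single arrays, wild type replicate 1 and 2 first, then rps0a replicate 1 and 2. Differences are on the log2 scale after quantile normalization, as rps0a minus the compared strains, with the standard error of a limma fit over all 24 arrays. A probe set was called at a Benjamini-Hochberg adjusted p under 0.05 over all 9275 probe sets. RNA came from whole cultures, so fewer cells with a transcript and less of it per cell cannot be told apart.

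The rps0a arrays were the extremes of the series in background, taken per array as the 95th percentile over 19 control probe sets that match Bacillus or mouse genes and no yeast gene. Background was 5.55 in rps0a replicate 1, the lowest of the 24 arrays, and 30.8 in replicate 2, the highest, against 7.37 to 14.3 in the 22 arrays of other strains. Of all probe sets, 87.8% exceeded background in replicate 1 and 68.0% in replicate 2, and 1882 did so in replicate 1 alone. Over 7274 probe sets above background in both arrays of rps0a or of wild type, the SD of the differences from the wild-type mean was 0.47 in rps0a replicate 1 and 0.73 in replicate 2, against 0.40 between the wild-type arrays. The 3′ to 5′ signal ratios of actin and SPT15 lay within the range of the other strains in both rps0a arrays. Transcripts of an a-mating-type strain were high in both, as for MFA1 at 6438 and 6217, which encodes the a-factor pheromone. Among genes specific to alpha cells, the pheromone receptor gene STE3 was at 17.8 and 19. MF(ALPHA)1 was at 42.4 and 30.4 and MF(ALPHA)2 at 19.2 and 49.1. SAG1 was higher, at 97.9 and 94.3, against 83.0 and 101.7 in wild type. Medians per chromosome lay between −0.09 and 0.08 in either rps0a array over 16 chromosomes.

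In the knockout the deleted gene was lost from both arrays. The probe set for RPS0A alone (YGR214W, chromosome VII) read 5454 and 6142 in wild type and 10.8 and 7.3 in rps0a, the second of these below background. The fitted difference was −9.67 ± 0.28 (limma, adjusted p = 4.25e-11). The other RPS0A probe set, which may bind related sequences, read 3310 and 3711 in wild type and 195 and 150 in rps0a (−4.31 ± 0.14, limma, adjusted p = 1.43e-10).

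RPS0B (YLR048W, chromosome XII), the remaining copy, was not called, and its difference from wild type was near 0. Its main probe set read 12919 and 13129 in wild type and 12263 and 12845 in rps0a. The difference was 0.04 ± 0.14, with a 95% interval from −0.26 to 0.34 (limma, adjusted p = 0.971). A second RPS0B probe set of lower signal, at 2569 and 3007 against 2323 and 2607, gave 0.01 ± 0.23. A probe set shared by the RPS0A and RPS0B transcripts was lower in both rps0a arrays, at 9601 and 9351 against 7369 and 7209, but was not called (−0.32 ± 0.10, limma, adjusted p = 0.193). None of the 4 nearest measured neighbours of RPS0A, namely SLI1, RTA1, RSM27 and GPI1, was called.

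**Figure D1:**
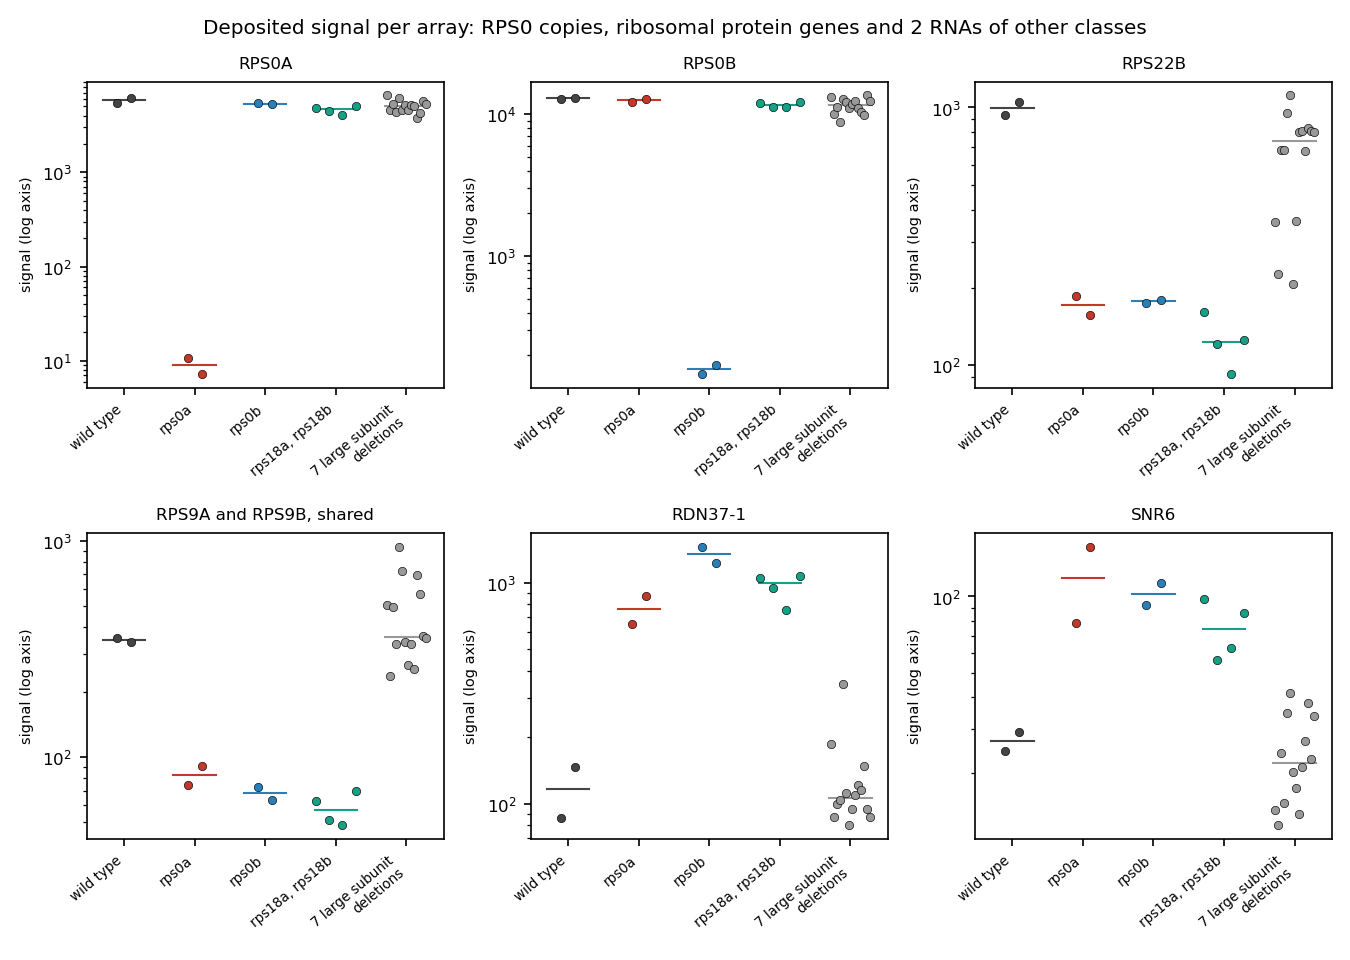
Deposited signal (log axis) of 6 probe sets in each of 24 arrays, grouped as wild type, rps0a, rps0b, the rps18a and rps18b deletions and the 7 large-subunit deletions; points are arrays and lines are group medians. RPS0A is lost in rps0a while RPS0B stays at 12263 and 12845 there, RPS22B and the shared RPS9 probe set are low in rps0a, and RDN37-1 and SNR6 are high.

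With the 2 for RPS0A itself counted in, 27 probe sets were called in rps0a against wild type, which is 0.291% of those tested. Of these, 8 were higher (0.0863%) and 19 lower (0.205%). A call was taken to hold in both arrays when both rps0a arrays lay beyond both wild-type arrays and the brighter strain was above background in both of its arrays. By that rule 24 calls held, 6 higher and 18 lower, of which 18 had a single gene name. The 3 that did not were GAT3, a GATA-family zinc finger gene, and 2 probe sets with no gene name. GAT3 read 0.9 and 1.1 in wild type and 11.1 and 18 in rps0a, where the higher value was itself below that array's background. Without rps0a replicate 1 the count of calls was 458, without rps0a replicate 2 it was 11 and without wild-type replicate 1 it was 14; without wild-type replicate 2 it was 26, of which 11 were among the 27. The 24 calls that held became 9 without wild-type replicate 1. A fit of only the 4 arrays compared gave 1 call. At an unadjusted p under 0.05 there were 1098 probe sets, 510 higher and 588 lower. Arrays of the 2 strains did not overlap, with rps0a higher, for 20.4% of the 7274 probe sets above background, and for 23.2% with rps0a lower. With 2 arrays per strain, unchanged probe sets can separate by the order of their arrays alone, so these shares do not count changes. Both rps0a arrays were at least 2-fold above both wild-type arrays for 30 of the 7274 probe sets (0.412%) and at least 2-fold below for 41 (0.564%).

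**Figure D2:**
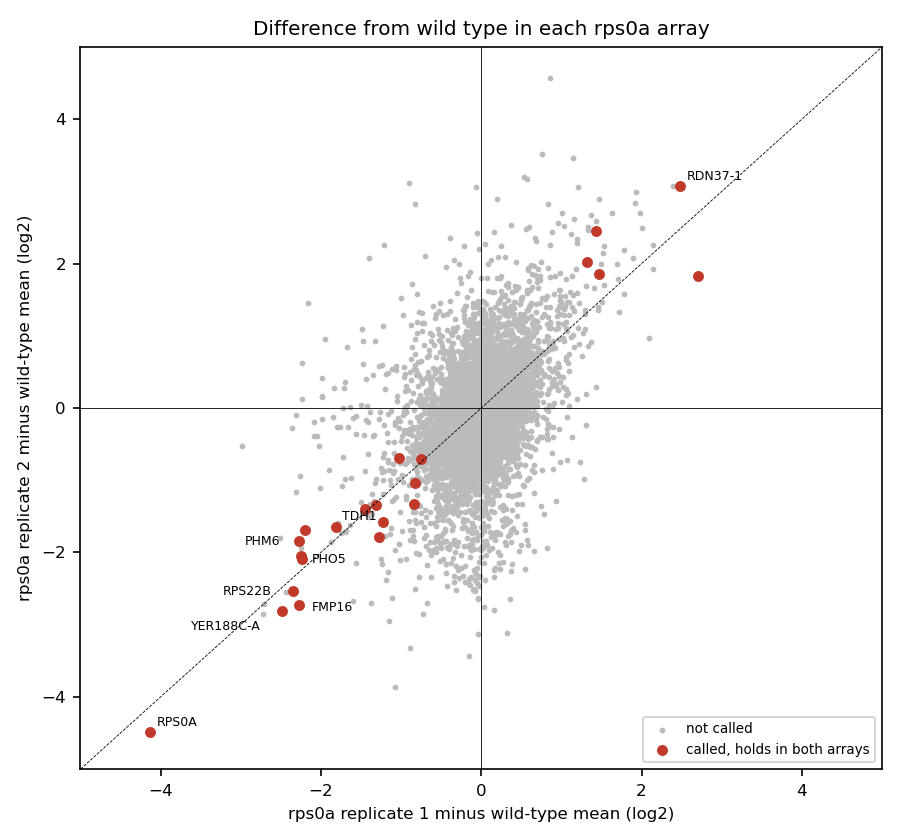
Difference of each rps0a array from the wild-type mean (log2), replicate 1 on the horizontal axis and replicate 2 on the vertical axis, for 7274 probe sets above background in both arrays of rps0a or of wild type; 2 lie outside the axes, which run from −5 to 5. Red points are calls that hold in both arrays, and the dashed line marks equality. Calling favours probe sets with close replicates, so how near red points lie to that line follows in part from their choice. Some lie off it, as SNR6 at 1.43 and 2.45. Uncalled points spread further along the axis of replicate 2, where the SD over all 7274 was 0.73 against 0.47.

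Genes for other proteins of the small subunit were among the decreases. RPS22B encodes uS8, a protein of the 40S body, and carries the snoRNA SNR44 in an intron. Its probe set of lowest signal read 934 and 1050.0 in wild type and 185 and 157 in rps0a, 5.43-fold lower (−2.44 ± 0.26, limma, adjusted p = 0.000308). The groups did not overlap, and both rps0a arrays were far below wild type. The other 2 RPS22B probe sets were called lower as well, by −1.42 ± 0.19 and −1.33 ± 0.20; the last of these missed the threshold without rps0a replicate 2 or without either wild-type array (adjusted p 0.0646 to 0.0901 in limma). SNR44 was not called, at 491 and 550 in wild type and 366 and 347 in rps0a (−0.48 ± 0.35, limma, adjusted p = 0.637).

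A probe set that matches both RPS9A and RPS9B, which encode uS4, read 356 and 339 in wild type and 74.1 and 91.5 in rps0a (−2.15 ± 0.16, limma, adjusted p = 8.62e-06). That probe set cannot assign the change to one copy. The probe set named for RPS9A alone read 946 and 1092 against 627 and 460 and was not called (−0.74 ± 0.19, limma, adjusted p = 0.145). Its suffix marks possible binding to related sequences. In the series the shared RPS9 probe set was also low in the other small-subunit deletions, at 72.8 and 63.3 in rps0b, 62.7 and 51.4 in rps18a and 48.6 and 69.8 in rps18b. It read 238 to 935 in the 14 arrays of large-subunit deletions, with no overlap. RPS22B read 92.8 to 179.5 in the rps0b, rps18a and rps18b arrays and ranged from 207 to 1114 in the large-subunit arrays.

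The ribosomal protein genes as a group had medians near 0. Of 33 measured small-subunit genes other than RPS0A, 1 was called lower (RPS22B) and none higher, with a median difference of 0.01. Of 47 large-subunit genes none was called and the median was 0.04. The same figures over all 5656 genes with a single name were 12 called lower (0.212%), 2 higher (0.0354%) and a median of −0.01. RPL7B had the largest shift of the large-subunit genes, at 798 and 784 in wild type against 462 and 203 in rps0a, and its error was wide (−1.25 ± 0.57, limma, adjusted p = 0.408). RPL9B read 799 and 882 against 458 and 370 (−0.88 ± 0.29, limma, adjusted p = 0.234).

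A pair of RNAs that are not messages rose. RDN37-1 is the rDNA unit that encodes the 35S precursor of 18S, 5.8S and 25S rRNA, and the files do not say which stretch its probe set covers. It read 85.8 and 146 in wild type and 655 and 874 in rps0a, 6.85-fold higher (2.78 ± 0.38, limma, adjusted p = 0.00427). The other small-subunit deletions read from 753 in 1 rps18b array to 1457 in 1 rps0b array, mostly above both rps0a arrays, whereas the large-subunit deletions read 79.9 to 349. SNR6 is the U6 RNA of the spliceosome, a product of RNA polymerase III. It read 24.5 and 29.2 in wild type and 78.9 and 157 in rps0a (1.94 ± 0.37, limma, adjusted p = 0.0463). RDN37-1 missed the threshold without rps0a replicate 2 (limma, adjusted p = 0.0758) or wild-type replicate 1 (0.0647), and SNR6 without rps0a replicate 2 or either wild-type array (0.136 to 0.38). Labelling began from an oligo-dT primer, per the labels, and how such a primer acts on RNAs without a poly(A) tail was not tested.

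Other small RNAs were higher in the median without passing the test one by one. The 4 measured spliceosomal RNAs had a median of 1.5, or 0.96 without rps0a replicate 2, with SNR6 called and SNR19, the U1 RNA, at 9.8 and 8.1 against 31.9 and 48.3. Of 57 snoRNAs none was called, the median was 0.51, and 29 had both rps0a arrays above both wild-type arrays against 6 below. That pattern covered 19.3% of all genes in the upward and 20.2% in the downward direction. Upward calls covered 0.0354% of all genes with a single name. SNR52 read 28.3 and 71.2 in wild type and 184 and 195 in rps0a (1.99 ± 0.40, limma, adjusted p = 0.0587), and SNR45 missed the threshold too (1.76 ± 0.35, limma, adjusted p = 0.0548). Both are box C/D RNAs that act on rRNA. Of 91 tRNA genes none was called and the median was 0.68, or 1.03 without rps0a replicate 1 and 0.52 without rps0a replicate 2. Most of these RNAs were dim: with every value below the background of rps0a replicate 2 raised to it, the medians were 0.29 for spliceosomal RNAs, 0.14 for snoRNAs and 0.03 for tRNAs. Without that step, spliceosomal RNA medians against the same wild-type arrays were 1.97 in rps0b, 1.33 in rps18a and 1.44 in rps18b. In the same order they were 0.59, 0.45 and 0.62 for snoRNAs and 0.78, 0.95 and 1.12 for tRNAs. Higher medians were thus not particular to rps0a.

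Genes for ribosome assembly had medians above 0 in both arrays, and no member was called. The small subunit processome cleaves and folds the 18S part of the precursor. Its 62 genes had a median of 0.41, at 0.27 in rps0a replicate 1 and 0.48 in replicate 2, and both arrays were above both wild-type arrays for 35 of them and below for 1. For 78 genes of large-subunit assembly the median was 0.40, with 45 above and 1 below. For 20 genes of late 40S assembly it was 0.35, or 0.21 without rps0a replicate 2, with 9 above and 1 below. Over all genes with a single name these shares were 19.3% and 20.2%. UTP18, a processome protein, read 320 and 193 in wild type and 527 and 432 in rps0a (0.98 ± 0.40, limma, adjusted p = 0.357). MAK16, a protein of early 60S particles, read 14.5 and 42.0 against 36.4 and 93.6 and was less precise (1.07 ± 0.46, limma, adjusted p = 0.383).

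The 41 genes of RNA polymerases I and III and their factors had a median of 0.22, with 14 above and 3 below. RRN3, the initiation factor that carries polymerase I to the rDNA promoter, read 145 and 101 in wild type and 286 and 296 in rps0a (1.25 ± 0.27, limma, adjusted p = 0.0864), so its groups were apart but it was not called. Median centring in place of quantile normalization moved the median of all genes to −0.14; relative to that shift the processome stayed at 0.34 and large-subunit assembly at 0.33. The 27 translation initiation genes, at a median of 0.20 or 0.12 without rps0a replicate 1, were at −0.10 under that scaling. Relative to the shift they were at 0.03, so little of their difference remained.

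**Figure D3:**
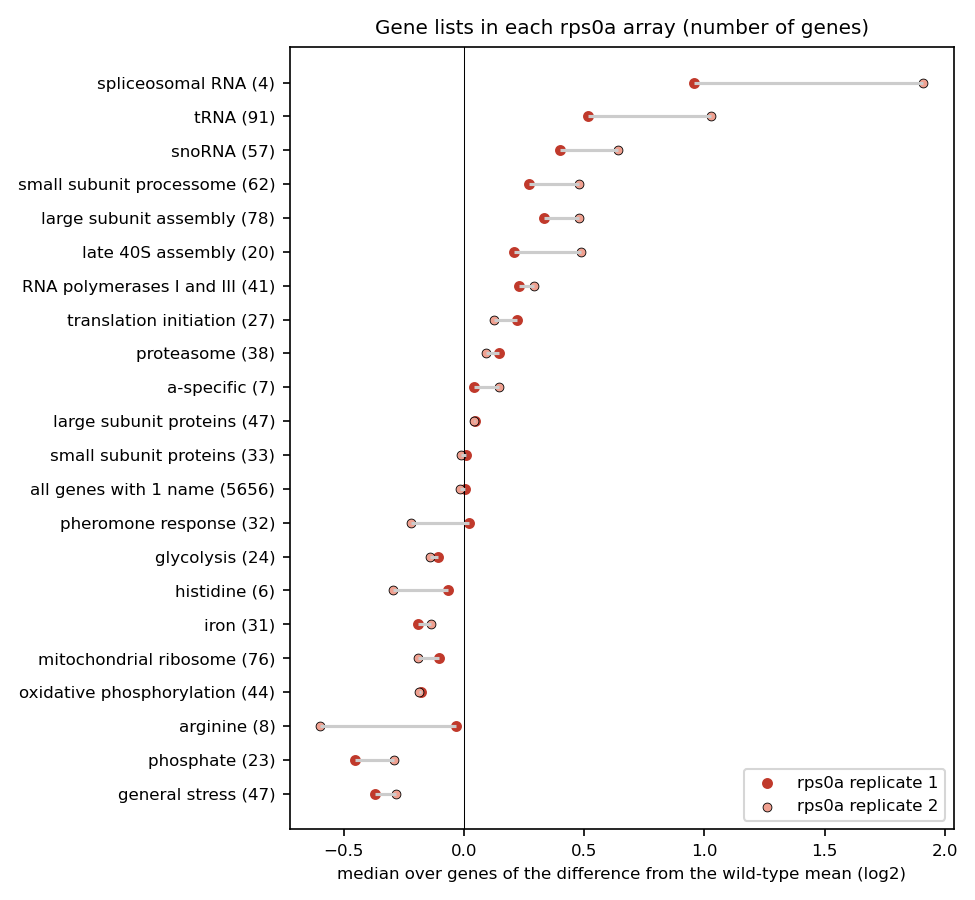
Median difference from the wild-type mean (log2) over the genes of each list, with the number of measured genes in brackets, for rps0a replicate 1 (red) and replicate 2 (pale). Assembly lists sit between 0.2 and 0.5 in both arrays, general stress and phosphate genes below −0.25 in both, and small RNAs are further right in replicate 2, where background was 30.8.

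Phosphate genes held 2 of the decreases. PHO5, the secreted acid phosphatase that cells make when phosphate is short, read 182 and 262 in wild type and 47.1 and 61 in rps0a, 4.48-fold lower (−2.16 ± 0.35, limma, adjusted p = 0.0166). Low PHO5 was not particular to rps0a. It read 24.6 to 48.4 in the other small-subunit arrays and 39.6 to 635 in the large-subunit arrays, where the median was 68.8. PHM6, a small gene known for its induction in low phosphate, read 18.5 and 24.1 against 4.4 and 9.5. It was called lower (limma, adjusted p = 0.0254) but was above background in neither rps0a array, and both wild-type values were below the background of 30.8 in rps0a replicate 2, so no fold is given. PHO5 missed the threshold without rps0a replicate 2 or either wild-type array (limma, adjusted p 0.0631 to 0.102), and so did PHM6 (0.0901 to 0.134). Of 23 phosphate genes these 2 were called lower and none higher, against 0.212% and 0.0354% of all genes with a single name. The list's median was −0.42, with 12 genes below wild type in both arrays against 2 above (20.2% and 19.3% of all genes).

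Some further members, chosen after their values were seen, lay near the threshold or varied between replicates. The vacuolar alkaline phosphatase gene PHO8 read 91.3 and 129 in wild type and 60.8 and 42.8 in rps0a (−1.29 ± 0.27, limma, adjusted p = 0.0688). PHO84, the high-affinity phosphate transporter, read 2077 and 3181 against 580 and 1596 with a large error (−1.24 ± 1.12, limma, adjusted p = 0.72). In rps0b the same transporter read 38.8 and 64.5, well under both rps0a arrays.

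In glycolysis 1 of 24 genes was called lower, against 0.212% of all genes with a single name. TDH1, one of the glyceraldehyde-3-phosphate dehydrogenase isozymes, read 345 and 240 in wild type and 84.4 and 99.6 in rps0a, 3.31-fold lower (−1.73 ± 0.30, limma, adjusted p = 0.0248). It read 42.7 to 89.4 in the other small-subunit arrays and 62.7 to 311 in the large-subunit arrays, where the median was 135. TDH1 missed the threshold without rps0a replicate 2 (limma, adjusted p = 0.124) or wild-type replicate 1 (0.263). The main isozyme gene TDH3 differed by 0.04. Over 24 glycolytic genes the median was −0.13, with 13 below wild type in both arrays and none above, against 20.2% and 19.3% of all genes. ENO1, an enolase gene that was chosen here after its values were seen, read 5440.4 and 5102 against 1889 and 2516 and was not called (−1.16 ± 0.24, limma, adjusted p = 0.0694).

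Among 47 genes of the general stress response 2 were called lower, against 0.212% of all genes with a single name. DDR48, a stress-induced gene of high signal, read 5080.1 and 4325 in wild type and 1940 and 1327 in rps0a (−1.40 ± 0.27, limma, adjusted p = 0.0463). GAD1, glutamate decarboxylase, read 82.5 and 92.5 against 36.7 and 33.5 (−1.53 ± 0.29, limma, adjusted p = 0.0475). In the other small-subunit arrays DDR48 read 605 to 1479 and GAD1 24.2 to 47.5. In the large-subunit arrays DDR48 read 2207 to 4897 and GAD1 26.0 to 95.8. Both missed the threshold without rps0a replicate 2 or either wild-type array (limma, adjusted p 0.0733 to 0.353 for DDR48 and 0.174 to 0.379 for GAD1). The list's median was −0.45, or −0.28 without rps0a replicate 1, and 28 genes were below wild type in both arrays against 2 above; over all genes 20.2% were below. With dim values raised to the background of rps0a replicate 2, the median was −0.13. YGP1, a secreted glycoprotein made by starved cells, was chosen here after its values were seen. It read 1269 and 1251 against 452 and 378 and was not called (−1.41 ± 0.37, limma, adjusted p = 0.149).

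Mitochondrial and iron genes had medians slightly below 0 with no call. For 44 genes of oxidative phosphorylation the median was −0.19, or −0.09 without wild-type replicate 2, with 19 below wild type in both arrays and 2 above. For 76 mitochondrial ribosomal protein genes it was −0.17, with 17 below and 2 above, and leaving out 1 array moved it between −0.25 and −0.08 (without wild-type replicate 2 and 1). Of all genes with a single name 20.2% were below and 19.3% above. For 31 iron genes it was −0.15, with 11 below and 4 above. FIT2, a cell wall mannoprotein that helps retain iron-siderophores, read 589 and 403 in wild type and 186 and 168 in rps0a (−1.46 ± 0.45, limma, adjusted p = 0.205).

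The remaining called genes were of mixed function. MCR1, the mitochondrial NADH-cytochrome b5 reductase, read 117 and 133 in wild type and 70.7 and 59.1 in rps0a (−1.09 ± 0.20, limma, adjusted p = 0.0361). It read 37.5 to 61.2 in the other small-subunit arrays and 70.0 to 137.1 in the large-subunit arrays. RTS3, a putative protein of the phosphatase 2A complex, read 59.3 and 71.4 against 37.8 and 40.8. MHP1, a microtubule-associated protein that was chosen here after its values were seen, read 482 and 507 against 292 and 275 (−0.73 ± 0.11, limma, adjusted p = 0.0142). YOR034C-A was called lower by −0.86 ± 0.16. It read 76.5 and 69.7 in wild type, 36.7 and 55.5 in rps0a and 31.4 to 59.8 in the other deletions. MCR1 and RTS3 missed the threshold without rps0a replicate 2 or either wild-type array (limma, adjusted p 0.147 to 0.291 and 0.149 to 0.277), and YOR034C-A without any 1 of the 4 arrays (0.0523 to 0.302).

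A pair of called genes were near background in rps0a. FMP16 read 29.0 and 23.9 in wild type and 5.6 and 6.2 in rps0a, above background there in 1 of 2 arrays (−2.50 ± 0.42, limma, adjusted p = 0.0231). YER188C-A read 27.4 and 27.7 against 5.1 and 4.7, above background in neither rps0a array, and was called lower (limma, adjusted p = 0.0193). In the other deletions YER188C-A read 2.7 to 25.7, with a median of 4.9, so low values were not particular to rps0a. FMP16 read 6.9 to 23.5 there. The wild-type values of both genes were below the background of 30.8 in rps0a replicate 2, and no fold is given for YER188C-A. Without rps0a replicate 2 or either wild-type array neither passed (limma, adjusted p 0.0605 to 0.216 for FMP16 and 0.0727 to 0.173 for YER188C-A).

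Of the calls that held, 5 probe sets had no gene name, 4 higher and 1 lower. Probe set 3982_at read 0.8 and 0.6 in wild type and 8995 and 9413 in rps0a, and was between 6610 and 9579 in all 20 arrays of the other deletions, so it was high in every deletion strain and its call is not particular to rps0a. What it measures is not known here, and whether it marks how the strains were made was not tested. Probe set 4609_at read 23.1 and 27.5 in wild type and 182 and 102 in rps0a (2.26 ± 0.41, limma, adjusted p = 0.0361), and 7.7 to 32.3 in the other deletions. It was the one rise among the 6 that the other small-subunit deletions did not show in their signals.

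**Figure D4:**
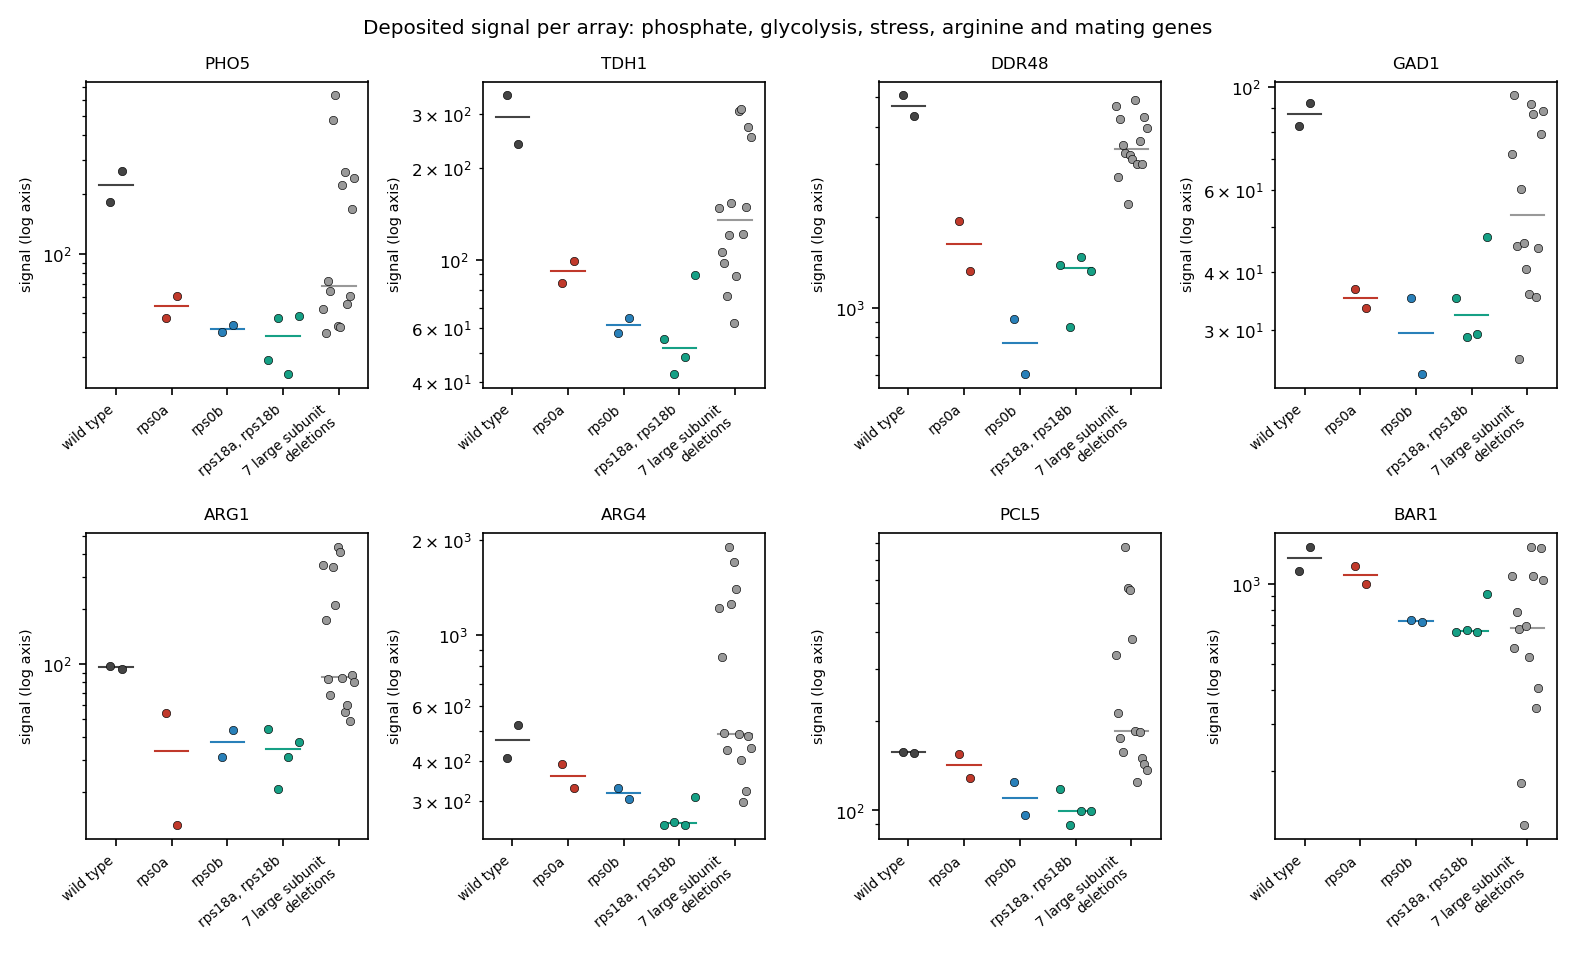
Deposited signal (log axis) of 8 genes in each of 24 arrays, grouped as wild type, rps0a, rps0b, the rps18a and rps18b deletions and the 7 large-subunit deletions; points are arrays and lines are group medians. PHO5, TDH1, DDR48 and GAD1 are below both wild-type arrays in both rps0a arrays; ARG1, ARG4 and PCL5 reach higher signals in some large-subunit deletions, and BAR1 in rps0a lies near wild type.

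The paralog comparison, rps0a against rps0b, used no wild-type array and called few probe sets beyond the deleted genes. Of the 9275 probe sets 8 were called (0.0863%), 3 higher (0.0323%) and 5 lower (0.0539%) in rps0a, and at an unadjusted p under 0.05 there were 785. The calls were the 2 RPS0A probe sets, the 2 RPS0B probe sets, GAT3, YGL188C-A and 2 probe sets with no gene name. Without rps0a replicate 1 the count was 271. YGL188C-A was above background in neither strain. The 2 unnamed probe sets were at most 14.4 in any of the 4 arrays.

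The main RPS0B probe set read 148 and 170.2 in rps0b, against 12263 and 12845 in rps0a (6.36 ± 0.14, limma, adjusted p = 2.13e-12). The RPS0A probe set, at 10.8 and 7.3 in rps0a, read 5417 and 5260.4 in rps0b. Each strain was low for its own deleted gene and high for the other copy.

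RPS0A by both probe sets, GAT3 and an unnamed probe set were called in both comparisons. The genes given next were called against wild type and not between the paralog deletions, and their intervals show how large a difference the arrays allow. For the RPS22B probe set of lowest signal the difference was −0.21, with a 95% interval from −0.76 to 0.34. For the shared RPS9 probe set it was 0.07, from −0.28 to 0.42. PHO5 differed by 0.11, from −0.63 to 0.85, and TDH1 by 0.39, from −0.25 to 1.02. RDN37-1 was lower in rps0a by −1.04, from −1.85 to −0.24, and was not called (limma, adjusted p = 0.491). DDR48 was higher in rps0a by 0.95, from 0.38 to 1.52, at 1940 and 1327 against 922 and 605 (limma, adjusted p = 0.325).

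Some group medians between the paralogs were away from 0. The processome was at −0.22, large-subunit assembly at −0.29 and general stress genes at 0.32 in rps0a minus rps0b, with no member called; over all genes with a single name 2 were called in each direction (0.0354%) and the median was −0.02. Against wild type, whose arrays both comparisons share, the processome median was 0.41 in rps0a and 0.58 in rps0b, and the general stress median was −0.45 in rps0a and −0.68 in rps0b.

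Against the mean of the 10 other deletions, 46 probe sets were called (0.496%), 24 higher and 22 lower in rps0a. Of the 24 higher, 8 carry the name of a gene deleted in one of those strains, which lowers the mean they are set against. The count was 517 without rps0a replicate 1 and 13 without replicate 2. In 12 of the 46 both rps0a arrays lay beyond all 20 other arrays on the normalized scale, and 2 of these were RPS0A. PHM8, a lysophosphatidic acid phosphatase and nucleotidase gene of the phosphate group, read 7.2 and 7.7 in rps0a and 7.6 to 43.6 in the others (−1.77 ± 0.20, limma, adjusted p = 0.000606), though it exceeded background in 1 of the 2 rps0a arrays.

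MEP2, the ammonium permease, read 19.3 and 13.8 in rps0a and 20.3 to 34.7 in the others (−1.06 ± 0.21, limma, adjusted p = 0.0422), also above background in 1 of 2. FMP16 and DJP1, a chaperone gene of peroxisomal import, were also above background in 1 of 2, and the endosomal SNARE gene TLG2 in neither. RTS3, above background in both, read 37.8 and 40.8 against 33.9 to 66.7 in the others, and was apart from them on the normalized scale only (−0.62 ± 0.13, limma, adjusted p = 0.0488). ELP2, a subunit of the Elongator complex of tRNA modification, was higher at 83.0 and 114, against 41.4 to 82.1 (0.65 ± 0.13, limma, adjusted p = 0.0476).

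POX1, the acyl-CoA oxidase of peroxisomes, read 13.7 and 45.6 against 0.3 to 12.3 (1.75 ± 0.34, limma, adjusted p = 0.0386). Its replicates differed widely. Of the 12, 2 had no gene name: probe set 4609_at was higher by 2.73 ± 0.30 (limma, adjusted p = 0.000532), and the other was dim and lower.

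A pair of arginine genes was called lower against the mean of the other deletions, where their signals were high in some large-subunit strains and not in the small-subunit ones. ARG4, argininosuccinate lyase, read 391 and 329 in rps0a, 410 and 521 in wild type, 297 to 1904 in the large-subunit arrays and 251 to 330 in the other small-subunit arrays (−0.72 ± 0.10 against the 10 deletions, limma, adjusted p = 0.00276). ARG1, argininosuccinate synthetase, read 54.0 and 13.2 in rps0a and 20.7 to 44.3 in the other small-subunit arrays, with the value of replicate 2 below background (−2.09 ± 0.40, limma, adjusted p = 0.0384). Of 8 arginine genes these 2 were called lower, against 0.283% of all genes with a single name, and the median was −0.65; against wild type none was called and the median was −0.32, at −0.03 in replicate 1 and −0.60 in replicate 2.

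PCL5, a cyclin that promotes turnover of the amino acid regulator Gcn4, read 155 and 129 in rps0a, 157 and 157 in wild type and 125 to 775 in the large-subunit arrays. The rps0b, rps18a and rps18b arrays, at 89.2 to 124.8, were all below both rps0a arrays, so the call rests on the mean of the 10 deletions (−0.64 ± 0.13 against the 10 deletions, limma, adjusted p = 0.048). BAR1, the protease that degrades alpha factor, was higher in rps0a than the mean of the other deletions, at 1162 and 993 (0.65 ± 0.11 against the 10 deletions, limma, adjusted p = 0.0256). The strains overlapped: BAR1 read 733 and 719 in rps0b, 1352 and 1032 in rpl7b and 1366 and 1072 in rpl22b. Its lowest signals, 181 and 126 in rpl14a and 343 and 410 in rpl7a, lower the mean it is set against. It was not called against wild type, at 1115 and 1370.3 there (0.02 ± 0.15, 95% interval from −0.31 to 0.35).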

How the data were processed

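The files hold 1 intensity per probe set and array, as deposited by the authors. The method that summarised probes, and any scaling, are not given in the sources used here. Gene names came from the platform annotation, updated to RefSeq symbols (R64). Values under 3.7, the 10th percentile, were raised to it (9.88% of values), log2-transformed and quantile normalized. limma 3.58.1 in R 4.3.3 fitted 12 strain means over all 24 arrays (12 residual degrees of freedom before moderation), after tests on simulated data. A probe set above background in neither array of a strain is given without a fold. Each gene in a list took its brightest probe set. Named genes were RPS0A, RPS0B, their neighbours, the 15 largest held calls per direction against wild type, 8 for the other comparisons, and the leading list members. The comparison and the lists were chosen with earlier results of these data known. The number of arrays limits precision. Replicate numbers were not treated as a pairing: the replicate 1 minus replicate 2 differences of rps0a and of wild type correlated at 0.03.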

Additional observations from a re-analysis of the deposited data

How the results depend on the processing

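With 2 arrays per strain, the counts depended on single arrays of rps0a and of wild type and on the spread borrowed from the other strains. Against wild type the total of calls, 27 in the reported fit, was 16 with no normalization, 55 with median centring, 16 on log2(value + 1), 16 with array weights and 46 with a replicate block, and it fell to 1 when only the 4 arrays compared entered the fit. Leaving out 1 array in turn gave 11 (without rps0a replicate 2) to 458 (without rps0a replicate 1), the lone array being assumed to vary like the other strains; 26 of the 27 calls were among the 458 and 8 among the 11. Without wild-type replicate 1 there were 14. The total of calls that held in both arrays, 24 in the reported fit, was 13 with no normalization, 51 with median centring, 37 over probe sets above background, 14 with array weights, 42 with the replicate block and 1 with only the arrays compared. Without wild-type replicate 1 it was 9 and without replicate 2 it was 19. Against rps0b the 8 calls became 4 on log2(value + 1), 4 without the dimmest 25%, 4 with a trend and robust fit, 5 with array weights and 0 with only the arrays compared; leaving out 1 array gave 7 to 271. Against the other 10 deletions the 46 calls became 18 with median centring, 28 on log2(value + 1) and 11 with array weights; leaving out an rps0a array gave 13 to 517, and leaving out a strain gave 25 (rpl7a), 23 (rpl7b), 26 (rpl12a), 26 (rpl12b) and 28 (rpl22a). The cause was not tested for these shifts. RPS0A by both probe sets, the shared RPS9 probe set and 2 of the 3 RPS22B probe sets were called under every alternative except the fit of only the arrays compared. RPS0B was called under none of 16 alternatives (−0.24 to 0.08). The call was lost for PHO5 in 5, TDH1 in 4, RDN37-1 in 3, SNR6 and MCR1 in 7 each, and DDR48, GAD1 and RTS3 in 9 each of 16 alternatives, with no change of direction. The differences of YER188C-A, FMP16 and PHM6 became 0 with the floor at the highest background.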
